A study of Mus musculus with 7 samples.

Results

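The 10 genes described here mark the subsets of dendritic cells, the leukocytes that take up antigen and present it to T cells. Type 1 conventional dendritic cells, which depend on the transcription factor Batf3, are known for presenting antigen taken up from dying cells to CD8+ T cells, and type 2 conventional dendritic cells for presenting antigen to CD4+ T cells. Plasmacytoid dendritic cells are known as makers of type I interferon, and conventional dendritic cells that mature in a tissue switch on a migratory program and leave for the draining lymph node.

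The members were taken by name: Xcr1, Clec9a and Batf3 for type 1 cells, Flt3 and Zbtb46 for conventional cells of both types, Cd209a for type 2 cells, Siglech for plasmacytoid cells, and Ccr7, Fscn1 and Ccl22 for migratory cells. These are 10 of the 22629 rows of the count table. All 10 passed the filter on low counts, as did 17489 genes in all.

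The tumors were grown s/c in the right flank of C57BL/6 mice, purchased at 6 weeks of age and housed for 2 weeks before the experiment, and were harvested 2 weeks after inoculation. Every tumor was formed with the pancreatic ductal adenocarcinoma (PDA) line 1242, from a KPC mouse, carrying Cas9 and a scrambled control guide (sgScramble). The sgScramble group had 3 tumors, numbered 1, 4 and 5, and the sgScramble-icOVA group (icOVA) had 4, numbered 15, 16, 18 and 2. The cells of the icOVA tumors carried a doxycycline-inducible vector for cytoplasmic ovalbumin. Whether the cells of the sgScramble tumors carried that vector too is not stated. The study's methods describe induction by doxycycline food from the day of inoculation, the inoculation of more cells for ovalbumin-inducible tumors than for other s/c tumors, and single-cell cloning of the ovalbumin-inducible cells. The sources used here do not state which cells were injected to form the sgScramble tumors, whether their hosts received doxycycline, or whether the 4 icOVA tumors came from 1 clone. Clone, doxycycline, cell number and ovalbumin therefore cannot be told apart. The comparison asks how the tumors differ when the cancer cells express a foreign antigen.

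Total counts ran from 30904855 to 37510591 per tumor, and no pair of tumors within a group had identical counts. OVA counts were 151, 85 and 92 in the sgScramble tumors and 3413 to 10750 in the icOVA tumors, higher where the labels name ovalbumin. The source of the OVA counts in the sgScramble tumors was not tested. The libraries were made from whole tumors, so a count cannot be assigned to a cell type, and fewer cells of a type cannot be told apart from less RNA per cell. The lowest count of any member in any tumor was 28, for Cd209a in sgScramble tumor 5.

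Siglech was the 1 member of 10 that passed the threshold (adjusted p below 0.05, quasi-likelihood F test of edgeR, Benjamini-Hochberg adjustment over 17489 genes), and it was higher in icOVA tumors. Of all genes tested, 5.9% were called, 3.36% higher and 2.54% lower. The log2 fold changes of icOVA over sgScramble, given below as log2 changes, were above 0 for all 10 members, with a median of 0.88, beside -0.0048 over all genes tested. At an unadjusted p below 0.05 there were 7 members, all higher, where 13.4% of genes were higher by that rule. Siglech and Ccl22 did not overlap between the groups, as 11.3% of all genes did not with icOVA higher.

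**Figure D1:**
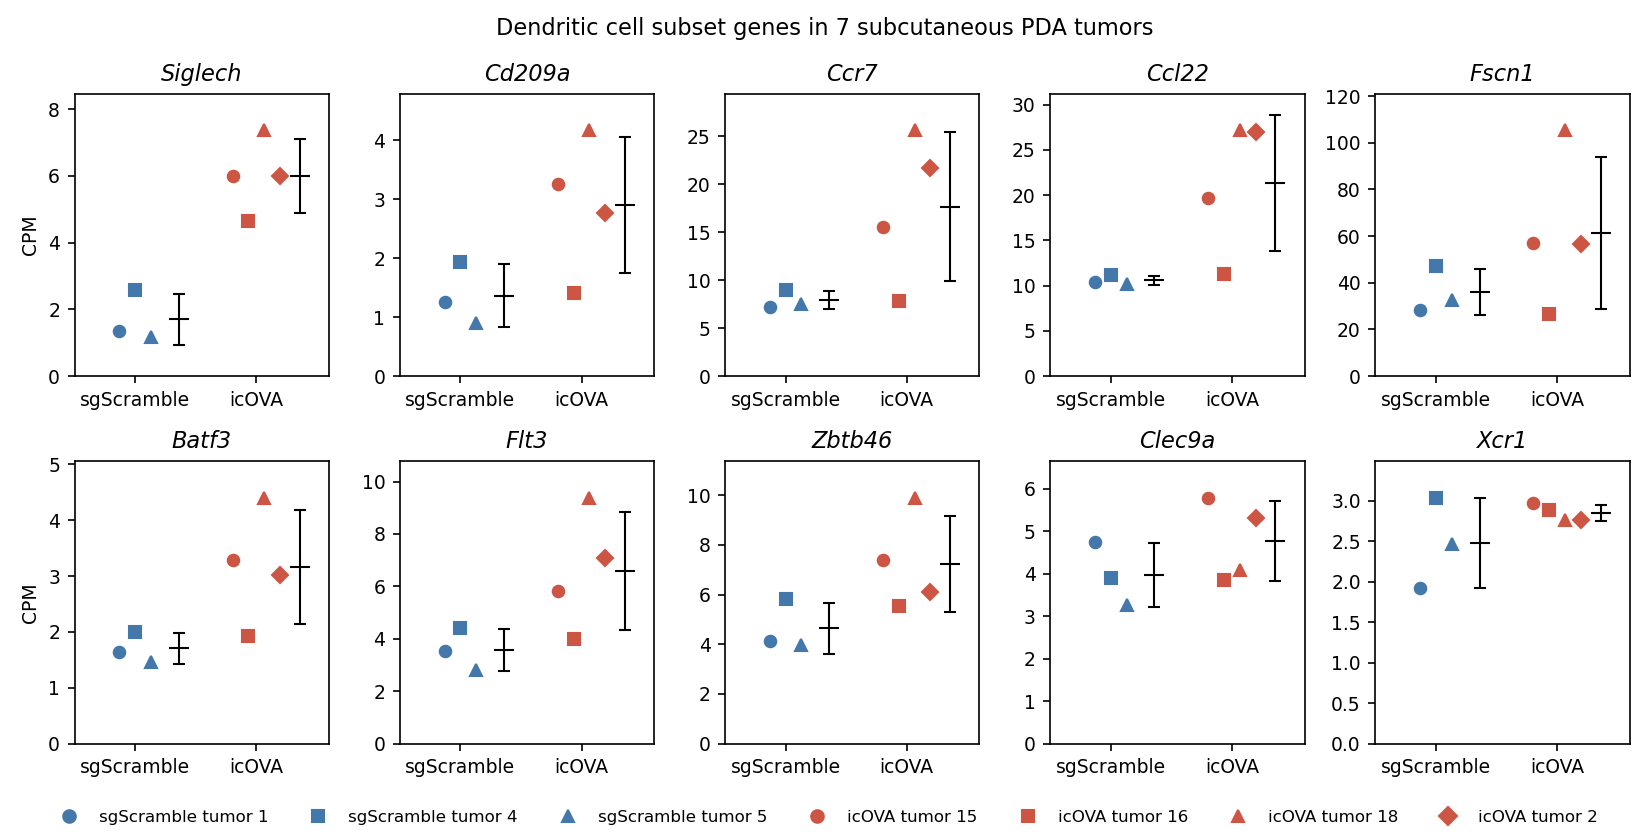
CPM (counts scaled to library size, vertical axes from 0) of the 10 members in each tumor, sgScramble in blue and icOVA in red, with a marker shape for each tumor within its group; black lines are the group mean and SD (n = 3 and n = 4). Siglech sits between 4.64 and 7.36 CPM in icOVA tumors, above the highest sgScramble value of 2.58, while icOVA tumor 16 lies within or close to the sgScramble range for the migratory genes.

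Siglech encodes a sialic acid-binding lectin of the plasmacytoid dendritic cell surface, which some macrophages also carry. It lies at chr7:55768178-55778925 on the plus strand (GENCODE M21 on GRCm38, the assembly named mm10 in the submitters' processing notes). In CPM, the counts scaled to the size of each library, Siglech had 1.35, 2.58 and 1.18 (47, 85 and 37 counts) in tumors 1, 4 and 5 of the sgScramble group, against 6.00, 4.64, 7.36 and 6.00 (222, 162, 256 and 193 counts) in icOVA tumors 15, 16, 18 and 2. Every icOVA tumor was above every sgScramble tumor, and sgScramble tumor 4 was the highest of its group. The group means were 1.71 ± 0.764 (SD, n = 3) and 6.00 ± 1.11 CPM (SD, n = 4). The fitted difference was 3.51-fold, a log2 change of 1.81 (SE 0.31, 95% interval 1.09 to 2.53, adjusted p = 0.0276 by edgeR).

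The call depended on which tumors were kept. Siglech did not pass without sgScramble tumor 1 (adjusted p = 0.133 by edgeR), without sgScramble tumor 5 (0.134), without icOVA tumor 15 (0.0854) and without icOVA tumor 2 (0.0681), fits in which 0 to 6 genes of the whole table were called higher. It passed without each of the other 3 tumors, and its log2 change stayed between 1.61 and 2.25.

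Of the 10 members, 9 have a RefSeq promoter window (GRCm38.p6, 250 bases before to 50 after the annotated start). The windows of Siglech and Ccl22, the members whose groups did not overlap, and of Xcr1 and Clec9a, the members with the smallest differences, are shown. The rules for the pairs differ: Ccr7, which has no window, and Cd209a had larger log2 changes than Ccl22. Capitals mark CACCTG, the reverse complement of the E-box CAGGTG bound by factors of the TCF4 family among others.
Siglech (chr7:55767934-55768233, plus strand): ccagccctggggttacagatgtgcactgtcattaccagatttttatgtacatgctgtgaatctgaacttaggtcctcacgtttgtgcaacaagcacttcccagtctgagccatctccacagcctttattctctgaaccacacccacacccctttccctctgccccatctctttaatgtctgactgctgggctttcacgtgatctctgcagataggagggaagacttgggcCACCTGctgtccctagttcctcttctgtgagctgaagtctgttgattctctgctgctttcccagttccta
Ccl22 (chr8:94745434-94745733, plus strand): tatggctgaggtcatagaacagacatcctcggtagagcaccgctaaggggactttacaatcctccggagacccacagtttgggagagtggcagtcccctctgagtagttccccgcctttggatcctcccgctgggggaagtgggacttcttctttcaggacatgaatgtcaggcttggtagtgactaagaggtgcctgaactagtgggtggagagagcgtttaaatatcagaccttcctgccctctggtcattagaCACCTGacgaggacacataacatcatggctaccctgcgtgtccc
Xcr1 (chr9:123861980-123862279, minus strand): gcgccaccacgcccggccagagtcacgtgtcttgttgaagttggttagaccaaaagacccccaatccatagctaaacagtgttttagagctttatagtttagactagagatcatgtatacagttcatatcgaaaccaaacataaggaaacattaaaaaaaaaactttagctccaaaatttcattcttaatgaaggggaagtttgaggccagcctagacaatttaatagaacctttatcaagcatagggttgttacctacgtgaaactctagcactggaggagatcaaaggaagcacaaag
Clec9a (chr6:129408612-129408911, plus strand): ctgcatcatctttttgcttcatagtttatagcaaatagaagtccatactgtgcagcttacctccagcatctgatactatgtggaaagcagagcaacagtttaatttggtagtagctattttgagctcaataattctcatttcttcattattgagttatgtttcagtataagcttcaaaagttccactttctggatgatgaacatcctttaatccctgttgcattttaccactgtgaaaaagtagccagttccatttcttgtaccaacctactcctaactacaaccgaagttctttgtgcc

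The windows were searched on both strands for GAGGAAGT (PU.1), the IRF motif (a pair of GAAA repeats 2 bases apart), TGANTCA (AP-1), CAGGTG (E-box) and GGGANTTCC (NF-kappaB). The E-box stood at bases -20 to -15 of Siglech, at +7 to +12 of Ccl22 and at -238 to -233 of Zbtb46. Here +1 is the annotated start of the window, and 20.2% of 32851 mouse windows hold the E-box. Zbtb46 also held the AP-1 letters at -61 to -55, which 7.81% of the windows hold. The Zbtb46 window (chr2:181424339-181424638, minus strand) lies inside the gene, whose GENCODE span begins at 181459426 on that strand. Whether its letters are at promoter positions is therefore uncertain. The Batf3 window (chr1:191098164-191098463, plus strand) also lies inside its gene, whose GENCODE span begins at 191097847. Bases before that start were not searched. For Ccl22 the GENCODE start, 94745590, lies within the window and before the start used here, so the E-box position depends on the annotation. Neither Xcr1 nor Clec9a held any of the 5 motifs, nor did the other four windows searched. PU.1, IRF and NF-kappaB letters, present in 3.20%, 3.44% and 1.68% of all windows, were found in none of the 9.

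The plasmacytoid list had 10 other genes, of which 4 were called higher and none lower in icOVA tumors, with a median log2 change of 0.70. Ccr9, a chemokine receptor of plasmacytoid cells and of some T cells, had 1.04, 1.34 and 0.767 CPM in sgScramble tumors and 4.54, 2.89, 4.803 and 3.89 CPM in icOVA tumors, a log2 change of 1.94 (SE 0.27, adjusted p = 0.0230 by edgeR). Ly6d rose by 1.56 on the log2 scale (adjusted p = 0.0271), Spib, a transcription factor of plasmacytoid and B cells, by 1.40 (0.0328), and Irf7, a regulator of interferon genes, by 0.36 (0.0314). None of the 4 overlapped between the groups. The most abundant of the genes that did not pass were Bst2, Tcf4 and Runx2, with log2 changes of 0.05, 0.06 and 0.23. Tcf4, the factor that specifies plasmacytoid cells and is also made by many other cells, had 98.8 ± 10.3 (SD, n = 3) and 102.9 ± 12.4 CPM (SD, n = 4). Because Ly6d and Spib are also B cell genes, the B cell markers were read beside them: 0 of the 4 tested were called, and the summed level of the list was 2.76 to 4.13 CPM in sgScramble and 5.56 to 6.35 CPM in icOVA tumors. Their part in the Ly6d and Spib differences was not tested.

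**Figure D2:**
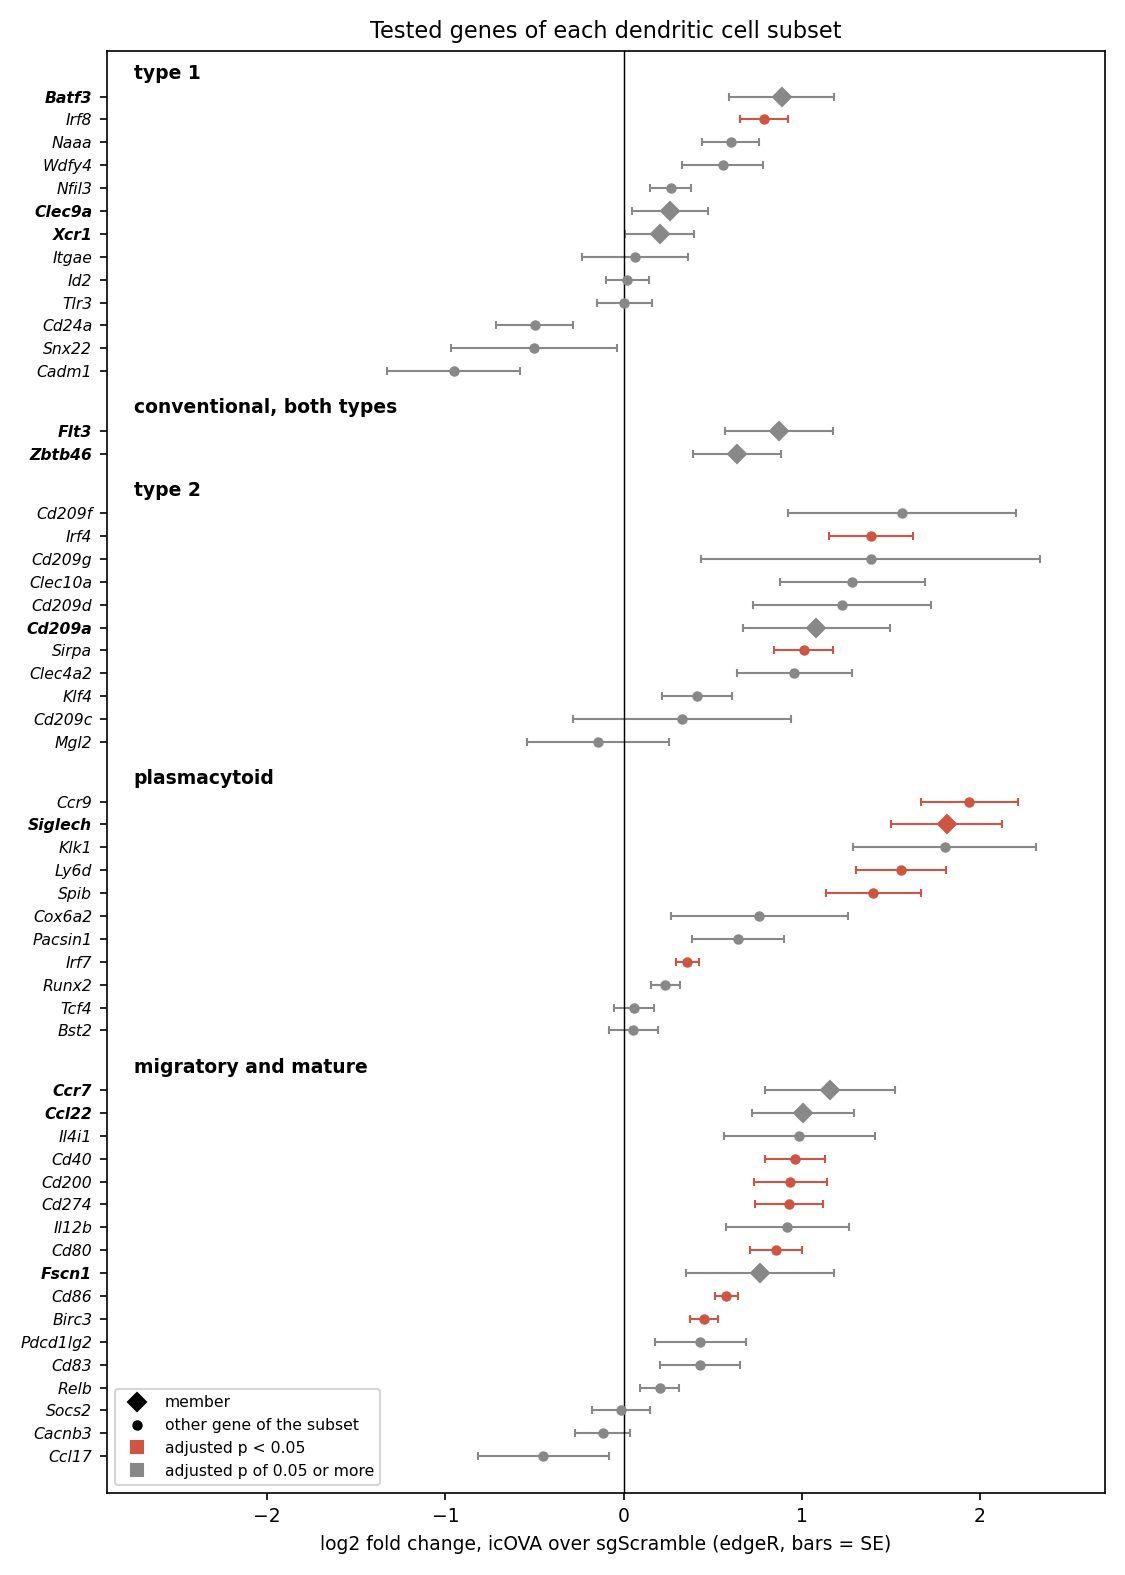
Log2 fold change of icOVA over sgScramble tumors (horizontal axis, bars are the SE) for the tested members (diamonds) and the other tested genes of each dendritic cell subset (circles), red where the adjusted p is below 0.05. Siglech at 1.81 is the 1 red diamond, and red circles appear in every subset that has other genes, 1 for type 1, 2 for type 2, 4 for plasmacytoid and 6 for migratory and mature cells.

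None of the 3 type 1 members was called in either direction. Xcr1, the receptor through which type 1 cells follow the chemokine Xcl1, lies at chr9:123852315-123862029 on the minus strand. It had 1.93, 3.04 and 2.46 CPM in sgScramble tumors 1, 4 and 5 and 2.97, 2.89, 2.76 and 2.77 CPM in icOVA tumors 15, 16, 18 and 2. The 4 icOVA values lay within the sgScramble range and differed by 1.08-fold among themselves. Its log2 change was 0.20 (SE 0.19, 95% interval -0.24 to 0.65, adjusted p = 0.529 by edgeR).

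Clec9a, a receptor for actin exposed on dead cells, lies at chr6:129408862-129424763 on the plus strand. The sgScramble tumors had 4.75, 3.89 and 3.26 CPM of Clec9a, and the icOVA tumors 5.78, 3.84, 4.08 and 5.32 CPM. The groups overlapped, with icOVA tumors 16 and 18 inside the sgScramble range. The log2 change was 0.26 (SE 0.21, 95% interval -0.23 to 0.75, adjusted p = 0.460 by edgeR). Clec9a shares 184 exon bases on the same strand with Clec1b, and 3.2% of its 76-base stretches also match that gene, which had 202 counts over the 7 tumors, so a small share of its reads is of uncertain origin.

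Batf3, the transcription factor that type 1 cells require and that activated T cells also make, had 1.64, 2.01 and 1.47 CPM in the sgScramble tumors and 3.30, 1.92, 4.40 and 3.02 CPM in the icOVA tumors. Of the icOVA tumors, 3 stood above the sgScramble range and icOVA tumor 16 within it. Batf3 had a log2 change of 0.89 (SE 0.29, adjusted p = 0.107 by edgeR). The gene lies at chr1:191097847-191108945 on the plus strand.

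Of 10 other type 1 genes, 1 was called higher and 0 lower, and their median log2 change was 0.04. The gene called was Irf8, a transcription factor needed by type 1 cells and made by plasmacytoid cells, B cells and macrophages too, with 51.7 ± 5.41 (SD, n = 3) in sgScramble and 89.3 ± 13.1 CPM (SD, n = 4) in icOVA tumors. Its log2 change was 0.79 (SE 0.13, adjusted p = 0.0271 by edgeR). Cd24a, Id2 and Tlr3, the most abundant genes of the list, are also made by many other cells and had log2 changes of -0.50, 0.02 and 0.0046 that did not pass. Cd24a was lower in every icOVA tumor than in every sgScramble tumor, as 13.3% of all genes were. Cadm1 had the largest log2 change of the list in size, -0.95 (SE 0.37, adjusted p = 0.1525 by edgeR), with overlapping groups. Of the 10 genes, 7 had log2 changes above 0. Xcl1, the ligand of Xcr1, had a log2 change of 0.10 (SE 0.29, adjusted p = 0.857 by edgeR), with 3.08, 6.02 and 3.52 CPM in sgScramble and 4.97, 3.15, 5.72 and 4.13 CPM in icOVA tumors.

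Flt3, the receptor for the growth factor on which dendritic cells depend, had 3.54, 4.41 and 2.81 CPM in the sgScramble tumors and 5.83, 4.01, 9.38 and 7.09 CPM in the icOVA tumors. Its values in icOVA tumors 15, 18 and 2 were above every sgScramble value, and tumor 16 was below sgScramble tumor 4. For Flt3 the log2 change was 0.87 (SE 0.30, adjusted p = 0.116 by edgeR). Its ligand gene Flt3l had a log2 change of 0.35 (SE 0.22, adjusted p = 0.340). Flt3 lies at chr5:147330741-147400489 on the minus strand.

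Zbtb46, a transcription factor of conventional dendritic cells that endothelial cells also make, had 4.15, 5.83 and 3.97 CPM in sgScramble and 7.37, 5.53, 9.89 and 6.09 CPM in icOVA tumors. Here too tumor 16 was the icOVA tumor inside the sgScramble range. The log2 change of Zbtb46, which lies at chr2:181387762-181459426 on the minus strand, was 0.64 (SE 0.25, adjusted p = 0.148 by edgeR).

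Cd209a, a lectin of type 2 and monocyte-derived dendritic cells at chr8:3743397-3748984 on the minus strand, had 1.27, 1.94 and 0.895 CPM in sgScramble tumors and 3.27, 1.40, 4.17 and 2.77 CPM in icOVA tumors. Tumors 15, 18 and 2 were above the sgScramble range, and tumor 16 was inside it. Its log2 change of 1.08 was the third of the 10 in size, with an SE of 0.41 and an adjusted p of 0.143 by edgeR.

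Of 12 other type 2 genes, 10 were tested, 2 were called higher and 0 lower, with a median log2 change of 1.12. Irf4, a transcription factor required by type 2 cells and also made by activated lymphocytes, had 4.38, 7.23 and 4.73 CPM in sgScramble and 17.9, 10.9, 15.1 and 13.1 CPM in icOVA tumors, a log2 change of 1.39 (SE 0.24, adjusted p = 0.0273 by edgeR). Sirpa, an inhibitory receptor of type 2 cells and macrophages, rose from 154.0 ± 31.9 CPM (SD, n = 3) to 310.2 ± 46.6 CPM (SD, n = 4), a log2 change of 1.01 (SE 0.17, adjusted p = 0.0271). Neither gene overlapped between the groups. Klf4, Clec10a and Clec4a2, the most abundant genes of the list that did not pass, had log2 changes of 0.41, 1.28 and 0.96. The list holds 6 relatives of Cd209a, of which Cd209b and Cd209e were removed by the filter on low counts.

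The 3 migratory members were higher on average in icOVA tumors, but none passed the threshold. Ccr7, the receptor that guides mature dendritic cells and naive T cells to lymph nodes, had 7.25, 8.96 and 7.51 CPM in sgScramble tumors and 15.6, 7.88, 25.6 and 21.7 CPM in icOVA tumors. Tumor 16 was within the sgScramble range and the other icOVA tumors were above it. Its log2 change was 1.16 (SE 0.36, adjusted p = 0.0960 by edgeR), and the gene lies at chr11:99144196-99155077 on the minus strand.

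Ccl22, a chemokine of mature dendritic cells and macrophages that draws Ccr4+ T cells, had 10.4, 11.2 and 10.2 CPM in sgScramble tumors and 19.7, 11.3, 27.2 and 27.0 CPM in icOVA tumors. Its groups did not overlap, although icOVA tumor 16 and sgScramble tumor 4 were next to each other. The log2 change of Ccl22, at chr8:94745590-94751699 on the plus strand, was 1.01 (SE 0.29, adjusted p = 0.0783 by edgeR). Ccr4, its receptor, had 0.490 ± 0.141 (SD, n = 3) against 0.728 ± 0.364 CPM (SD, n = 4), a log2 change of 0.56 (adjusted p = 0.436 by edgeR).

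Fscn1 encodes fascin, an actin-bundling protein of mature dendritic cells that fibroblasts, endothelial cells and cancer cells also make. It lies at chr5:142960343-142973185 on the plus strand and had 28.4, 47.1 and 32.8 CPM in sgScramble tumors and 57.0, 26.6, 105.3 and 56.7 CPM in icOVA tumors. The icOVA tumor 16 had the lowest value of all 7 tumors and tumor 18 the highest, 3.95-fold apart. The log2 change of Fscn1 was 0.77 (SE 0.41, 95% interval -0.19 to 1.73, adjusted p = 0.272 by edgeR).

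The ligands of Ccr7 were listed with the members. Ccl19 had 0.317, 0.273 and 0.863 CPM in sgScramble and 1.30, 0.888, 1.87 and 1.96 CPM in icOVA tumors, which did not overlap, with a log2 change of 1.63 (SE 0.48, adjusted p = 0.0838 by edgeR). Ccl21a ranged from 0.345 to 11.4 CPM in sgScramble and from 0.622 to 21.97 CPM in icOVA tumors and had a log2 change of 0.79 (SE 1.48, adjusted p = 0.765). Ccl21a has near-identical copies in the mouse genome, so its counts are uncertain. Of the 9 ligands and partner receptors, Csf2rb, a subunit of the receptor for granulocyte-macrophage colony-stimulating factor, and Ccl5, a chemokine of T and NK cells, were called higher, each with a log2 change of 1.01 (adjusted p = 0.0230 and 0.0170 by edgeR). Csf2 and Il15 had log2 changes of 1.30 (adjusted p = 0.103) and 0.15 (0.414).

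Of 14 other genes of migratory and mature dendritic cells, 6 were called higher and 0 lower, and the median log2 change was 0.51. The costimulatory genes Cd80, Cd86 and Cd40, which B cells and macrophages share, rose by 0.86, 0.58 and 0.96 on the log2 scale (adjusted p = 0.0271, 0.0230 and 0.0284 by edgeR). Cd274, which encodes PD-L1 and is made by cancer cells as well, rose from 178.1 ± 28.9 CPM (SD, n = 3) to 339.1 ± 70.5 CPM (SD, n = 4), a log2 change of 0.93 (adjusted p = 0.0367). Cd200 and Birc3 rose by 0.94 and 0.45 on the same scale (0.0419 and 0.0284). Socs2, Cacnb3 and Relb, the most abundant of the rest, had log2 changes of -0.01, -0.12 and 0.20. The chemokine gene Ccl17 had 1.28 ± 0.297 (SD, n = 3) in sgScramble and 0.937 ± 0.356 CPM (SD, n = 4) in icOVA tumors. Its log2 change was -0.45 (adjusted p = 0.459 by edgeR). Of the 14 genes, 11 had log2 changes above 0. In all, 13 of the 44 other dendritic cell genes tested were called higher and 0 lower, where 3.36% of all genes were called higher. Without sgScramble tumor 1, sgScramble tumor 5, icOVA tumor 15 or icOVA tumor 2, 0 of them were called. Scaled to Ptprc counts, 1 was called higher and 23 lower. The genes of the migratory and mature list that passed are not restricted to dendritic cells.

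Leukocyte genes and markers of other cell types differed as well. Ptprc, which encodes CD45 of all leukocytes, rose from 141.0 ± 30.7 CPM (SD, n = 3) to 298.3 ± 49.9 CPM (SD, n = 4), a log2 change of 1.08 (SE 0.18, adjusted p = 0.0271 by edgeR). Itgax, which encodes CD11c of dendritic cells and macrophages, had 71.0 ± 9.08 (SD, n = 3) against 73.4 ± 9.96 CPM (SD, n = 4), a log2 change of 0.05 (SE 0.13, adjusted p = 0.828). Cd74, of cells that present antigen on MHC class II, had a log2 change of 0.35 (adjusted p = 0.123). Among T cell markers 5 of 6 were called higher and their summed level was 75.3 to 124.2 CPM in sgScramble and 169.3 to 263.9 CPM in icOVA tumors. Among macrophage and monocyte markers 4 of 9 were higher, with sums of 893.7 to 1235 and 1286 to 1947 CPM. In the smaller lists 1 of 4 NK cell markers and 1 of 6 tested markers of naive lymphocytes and lymph node were higher, with sums of 12.0 to 18.3 and 13.8 to 39.5 CPM for NK cells and 36.8 to 59.2 and 62.5 to 98.5 CPM for the lymph node list. No marker of neutrophils (4 tested), endothelial cells (4), fibroblasts (5), epithelial cancer cells (5) or of Langerhans cells and skin (1) was called. At an unadjusted p below 0.05 by edgeR, all 4 endothelial markers were higher, where 13.4% of all genes were. That rule gave 1 neutrophil marker and 0 of the fibroblast, epithelial and skin markers. Median log2 changes were 0.84 for endothelial, 0.92 for fibroblast, 0.55 for neutrophil and 0.06 for epithelial markers. The endothelial sums were 146.3 to 229.5 and 186.7 to 442.3 CPM, and the fibroblast sums 4247 to 10600 and 3831 to 22980 CPM. The neutrophil sums were 53.4 to 108.8 and 85.7 to 124.2 CPM, and the skin sums were 2.16 to 2.69 and 1.80 to 2.85 CPM. The part of these cell types in the differences of the members was not tested.

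The members were also scaled to Ptprc. On this scale every library is set by its Ptprc count, which moved the median of all genes to -1.10 and the members by a like amount, and 80.4% of genes were called lower and 0.4% higher. Siglech was among the latter, with a log2 change of 0.78 (SE 0.32, adjusted p = 0.0306 by edgeR). Per 1000 Ptprc counts it had 10.2, 14.7 and 10.2 counts in sgScramble tumors 1, 4 and 5 and 16.5, 17.98, 23.6 and 23.1 counts in icOVA tumors 15, 16, 18 and 2, with no overlap. Xcr1 and Clec9a were lower on this scale, by log2 changes of -0.87 (adjusted p = 0.0171) and -0.84 (0.0159), both less negative than the median of all genes. Xcr1 fell from 17.7 ± 3.34 (SD, n = 3) to 9.72 ± 1.44 (SD, n = 4) counts per 1000 Ptprc counts, and Clec9a from 28.8 ± 6.92 (SD, n = 3) to 16.1 ± 3.13 (SD, n = 4), each with all 4 icOVA tumors below the sgScramble range. The other seven members did not pass in either direction and had log2 changes from -0.44 for Zbtb46 to 0.07 for Ccr7.

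**Figure D3:**
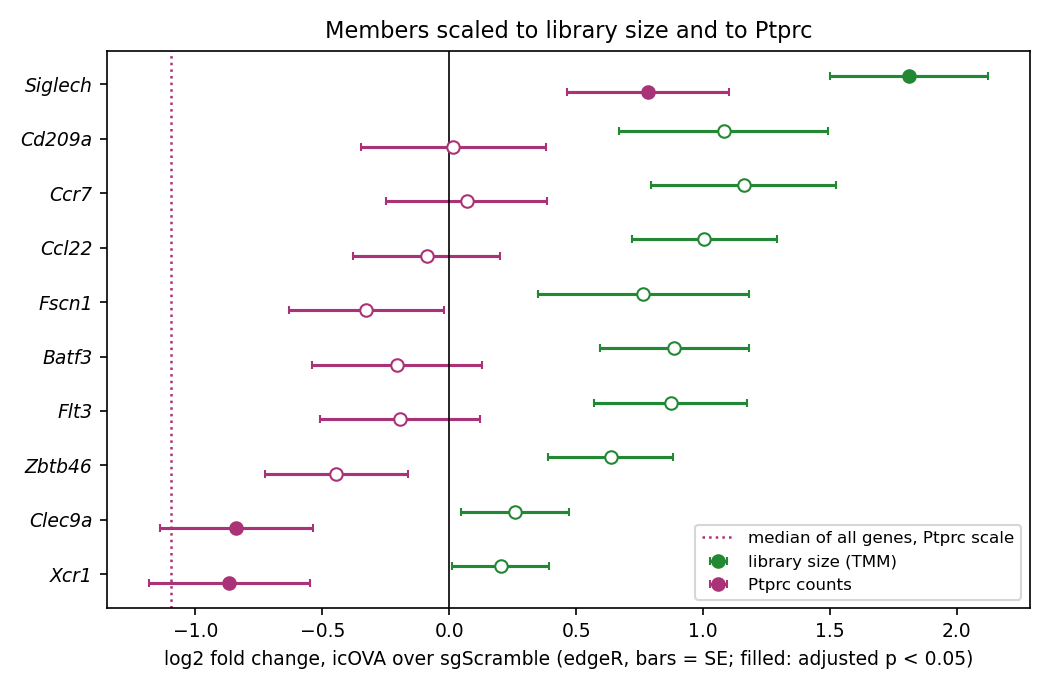
Log2 fold change of icOVA over sgScramble tumors (horizontal axis, bars are the SE) for each member with libraries scaled by their size (TMM, green) and by Ptprc counts (purple), filled where the adjusted p is below 0.05; the dotted line at -1.10 is the median of all genes on the Ptprc scale. Siglech is filled on both scales, at 1.81 and 0.78, while Xcr1 and Clec9a lie just above 0 on the first and are filled at -0.87 and -0.84 on the second.

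The ratio of Siglech to each of the other 9 members was then compared, a set of comparisons chosen after the values were seen. On the log2 scale the ratio was higher in icOVA tumors for all 9, by 0.81 against Ccr7 to 1.62 against Xcr1. The ratio to Xcr1 of the sgScramble tumors was -0.49, -0.23 and -1.02 (tumors 1, 4 and 5), and that of the icOVA tumors 0.999, 0.67, 1.40 and 1.10 (tumors 15, 16, 18 and 2). For 7 of the 9 members the groups did not overlap (two-sided exact permutation p = 0.0571, the lowest possible with 3 against 4 tumors, and 0.0735 once adjusted over the 9 ratios by Benjamini and Hochberg). The ratios to Ccl22 and Ccr7 overlapped (p = 0.114 and 0.171 by the same exact test, 0.129 and 0.171 after adjustment). With 3 against 4 tumors no ratio could reach 0.05 by this test, so the ratios are given as a description.

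The icOVA tumor 16 was the lowest icOVA tumor for 9 of the 10 members and tumor 18 the highest for 8. Xcr1 was the exception at the low end, with tumor 18 lowest, and Xcr1 and Clec9a at the high end, with tumor 15 highest. Without tumor 16, 6 members were called higher, Batf3 (adjusted p = 0.0380 by edgeR), Flt3 (0.0443), Cd209a (0.0493), Siglech (0.0240), Ccr7 (0.0214) and Ccl22 (0.0177), when 5.88% of the genes tested were called higher. Xcr1, Clec9a, Zbtb46 and Fscn1 did not pass in that fit. DESeq2 on all 7 tumors called 5 members higher, Batf3, Flt3, Siglech, Ccr7 and Ccl22, where it called 8.91% of genes higher. In no edgeR fit with a tumor left out did a member's log2 change fall below 0, and without sgScramble tumor 1, sgScramble tumor 5, icOVA tumor 15 or icOVA tumor 2 no member was called.

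**Figure D4:**
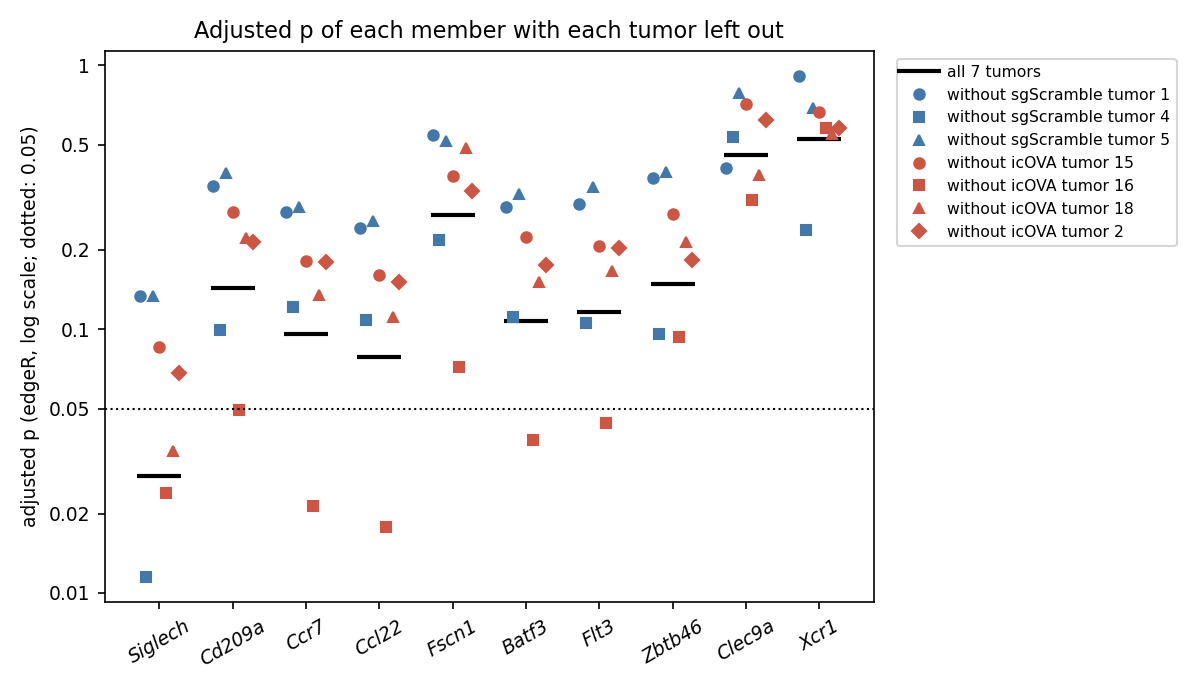
Adjusted p of each member (vertical log axis, dotted line at 0.05) with all 7 tumors (black bars) and after removal of each tumor (blue shapes for sgScramble tumors, red for icOVA tumors). Without icOVA tumor 16, 6 members are below the line, and Siglech is below it in 3 of the 7 fits.

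Marker levels of the same tumors stood as follows. Tumor 16 had the lowest fibroblast sum of all 7 tumors at 3831 CPM and tumor 18 the highest at 22980 CPM, beside 4247 to 10600 CPM in sgScramble tumors. The endothelial sum was 186.7 CPM in tumor 16 and 442.3 CPM in tumor 18, and 146.3 to 229.5 CPM in sgScramble tumors. The epithelial sum was 4626 CPM in tumor 16, the highest, and 2694 CPM in tumor 18, the lowest, where the sgScramble tumors had 4151 to 4379 CPM. Tumor 16 also had the most OVA counts of the 4 icOVA tumors, 10750, and tumor 18 the fewest, 3413. What part these differences have in the members' levels was not tested.

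**Figure D5:**
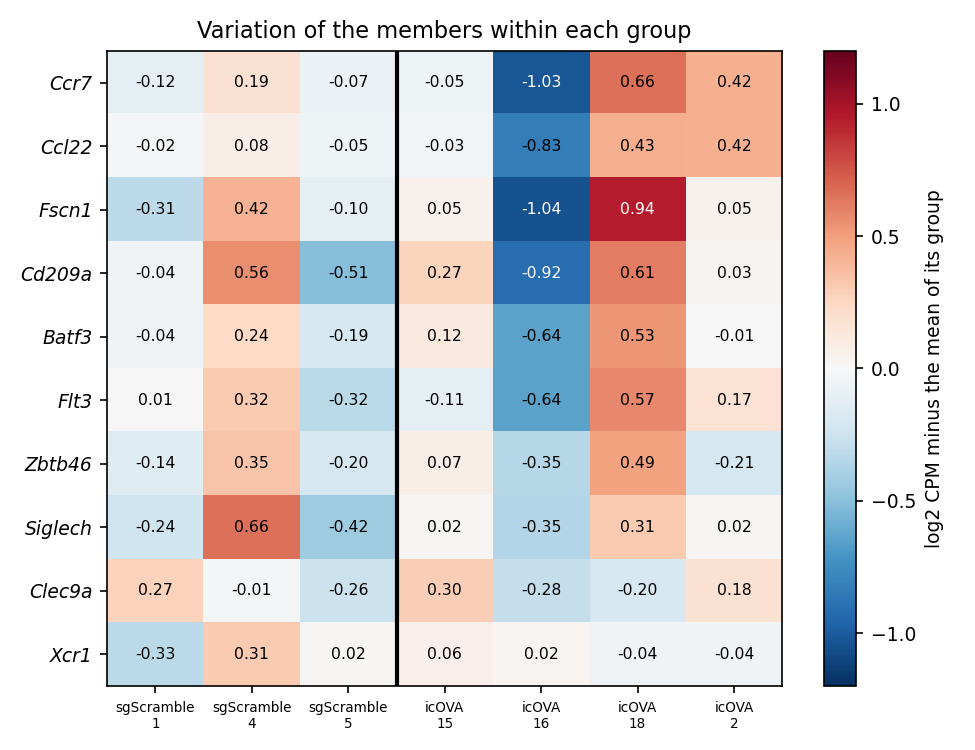
Log2 CPM of each member minus the mean of its group (color and printed values, scale at the right) in the 3 sgScramble and 4 icOVA tumors. Among the 4 icOVA tumors, 8 members are lowest in tumor 16 and highest in tumor 18, from -1.04 and 0.94 for Fscn1 to -0.35 and 0.31 for Siglech, while Xcr1 stays within 0.06 of 0 in all 4 icOVA tumors.

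After the mean of its group was taken from each value, 45 pairs of members had a median Pearson r of 0.75 over the 7 tumors, from -0.30 for Xcr1 and Clec9a to 0.99 for Ccr7 and Ccl22. Of the 45, 9 were above 0.9 and 3 below 0. Among the 28 pairs without Xcr1 and Clec9a the lowest r was 0.52, for Siglech and Ccl22, and the median 0.87. These points share their libraries, and tumors 16 and 18 lie at the ends of most pairs. Summed markers of several other cell types varied with the members by the same measure. Siglech had its highest r with the naive lymphocyte and lymph node list (0.93), as did Zbtb46 (0.98), which was also close to the fibroblast (0.95) and the macrophage and monocyte lists (0.95). Cd209a and Batf3 were closest to the endothelial markers (0.98 for both), as was Fscn1 (0.94). Xcr1 and Clec9a had lower values with the endothelial (0.26 and 0.32) and fibroblast lists (0.35 and 0.16), and Xcr1 was closest to the neutrophil (0.77) and T cell lists (0.75).

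The genes most like each member by the same measure were sought among 14128 genes with a mean count of at least 50. For Siglech they were Dis3l2 and Timeless (r = 0.99 for both), for Ccr7 the transcript 9030025P20Rik and Tbc1d8 (0.99), and for Ccl22 Bcl2a1d and Ccr7 itself (0.99). For Batf3 they were Cbfa2t3 and Erg (0.996 for both), for Cd209a Rab8b and Notch4 (0.99) and for Flt3 Gpr4 and BC024978 (0.99 and 0.98). Fscn1 was most like Rtl8a and Ltb (0.997 and 0.995), and Cpxm1 was among the genes most like Zbtb46 (0.999). Xcr1 was followed most closely by Jmjd4 and Amd1 (0.99 and 0.98), and Clec9a by Pms1 and 0610030E20Rik (0.99 and 0.98). With 7 tumors and this many genes, values near 1 are the top of a long ranking, and they are given as a description.

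Levels of different members were compared per length, in reads per kilobase of exon, scaled like CPM to the library (RPKM). In sgScramble tumors Fscn1 was highest at 12.0 ± 3.25 RPKM (SD, n = 3), followed by Ccl22 at 4.56 ± 0.221 and Ccr7 at 3.999 ± 0.465. Clec9a, Batf3 and Cd209a followed at 1.21 ± 0.227, 1.07 ± 0.171 and 0.865 ± 0.336 RPKM, neighbours that did not differ beyond their spread. Flt3, Xcr1, Zbtb46 and Siglech were together at the low end, at 0.581 ± 0.129, 0.556 ± 0.125, 0.546 ± 0.121 and 0.504 ± 0.226 RPKM. In icOVA tumors the 3 migratory genes were again the highest, at 20.4 ± 10.8 RPKM for Fscn1 (SD, n = 4), 9.16 ± 3.23 for Ccl22 and 8.94 ± 3.91 for Ccr7. Siglech, the lowest member in sgScramble tumors, was at 1.77 ± 0.328 RPKM in icOVA tumors, level within the spread with Batf3 at 1.98 ± 0.638, Cd209a at 1.83 ± 0.730 and Clec9a at 1.44 ± 0.286. Flt3 at 1.06 ± 0.365, Zbtb46 at 0.849 ± 0.228 and Xcr1 at 0.640 ± 0.0230 RPKM had lower means, with that of Xcr1 the lowest of the 10. Single tumors overlapped: Flt3 had 1.52 RPKM in icOVA tumor 18, where Clec9a had 1.24.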

How the data were processed

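RNA-seq of 7 s/c mouse PDA tumors was analysed, 3 sgScramble and 4 icOVA. The authors deposited raw counts per gene, whole numbers without normalization, 1 column per tumor. Libraries were sequenced as single reads of 76 bases after 12 PCR cycles. The labels give polyA RNA, whereas the study's methods name the TruSeq stranded total RNA kit, so which RNA was captured is uncertain. The submitters' processing notes name mm10, and the aligner, counting tool, annotation and filters are not given in the sources used here. Reads shared between genes could thus have been dropped or split.

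Of 22629 rows, 22414 had a symbol in GENCODE M21 and 3 had no counts. The test was run in edgeR 4.0.16 (R 4.3.3) after filterByExpr (minimum count 10, minimum total 15) and TMM scaling. It was the quasi-likelihood test of icOVA against sgScramble without covariates, with Benjamini-Hochberg adjustment and 0.05 as the threshold. The SE is the log2 fold change divided by the square root of F. CPM was edgeR's, on TMM-scaled library sizes, and log2 CPM had a prior count of 2. Ratios were compared by exact permutation tests (scipy 1.17.1). Sequences are from RefSeq. The model was tested on simulated data. Total counts were 30904855 to 37510591, and tumors of a group differed by more than counting error. The labels do not say whether tumors came from separate animals, so p-values measure the spread between tumors.

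The members and gene lists were chosen with earlier results of these data known. Named were all members and, from the other lists, the genes past the threshold, the ligands and partner receptors, Itgax and Ptprc, and the 3 most abundant genes of the rest of each dendritic cell list. Cadm1 and Ccl17, which were lower on average in icOVA tumors, were named in addition. Marker genes were given as counts and sums. Likeness named the 2 genes with the highest r, apart from 1 that is not reported here. Alternatives were other scalings, scaling to Ptprc, DESeq2 1.42.0, limma-voom (limma 3.58.1), other filters, a robust fit and leaving out each tumor. Tumors formed with Krt19-edited cells were not analysed here.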

Additional observations from a re-analysis of the deposited data

Results flagged for a closer look

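Of 34 levels examined in the 4 icOVA tumors, those of the members and of other named genes, 1 had a tumor far from the others. Cd86, a costimulatory gene of mature dendritic cells, had 5.46 log2 CPM in icOVA tumor 15 and 5.38, 5.38 and 5.39 in tumors 16, 18 and 2, so that the gap of tumor 15 to its neighbor made up 0.866 of the range of the group, more than Dixon's 95% limit for 4 values. Chance flags about 1 in 20 such groups, or 1.7 of 34. The whole range was narrow, and all 4 values were above those of the sgScramble tumors. No member had a tumor apart by this rule.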

How the results depend on the processing

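With all tumors kept, 9 alternatives were run. Other library scalings, limma-voom, other filters on low counts and the robust fit kept 1 member called and all 10 log2 fold changes above 0. DESeq2 called 5 members higher, Batf3, Flt3, Siglech, Ccr7 and Ccl22, when it called 1558 genes higher (8.91%) and 1278 lower; the cause was not tested. Scaling to Ptprc called 2 members lower, 70 genes higher and 14053 lower, and 1 other dendritic cell gene higher and 23 lower, since by construction it lowers every gene by the Ptprc difference. It turned the log2 fold changes of Xcr1 to -0.87, Clec9a to -0.84, Batf3 to -0.21, Flt3 to -0.19, Zbtb46 to -0.44, Fscn1 to -0.33 and Ccl22 to -0.0894.

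Leaving out each of the 7 tumors gave 0 to 6 members, 0 to 1014 genes and 0 to 18 other dendritic cell genes called higher, and 0 to 716 genes called lower. Without sgScramble tumor 1 or 5, or icOVA tumor 15, 0 genes were called by edgeR, with 3087, 2936 and 3415 genes at an unadjusted p below 0.05. Leaving out icOVA tumor 2 left 6 genes higher and 2 lower. Without sgScramble tumor 4, 681 genes were called lower. The study's figure legend calls the sgScramble and icOVA-expressing cells of these tumors paired. No pairing of tumors can be recovered from the labels, where no tumor number occurs in both groups. A paired analysis was therefore not run. Depth did not order the precision of the members: Xcr1, with 67 to 100 counts in sgScramble tumors, had the smallest SE (0.19) and Fscn1, with 986 to 1551, the largest (0.41).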
